A study of Triticum aestivum with 18 samples.

Results

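The 4 genes described here lie on the homoeologous group 1 chromosomes of bread wheat, 2 of them on 1A and 1 each on 1B and 1D, and carry calmodulin-like names in the study's annotation. They are 4 of the 134610 genes in the deposited table. They were selected on the authors' leaf values, as genes whose log2 fold change between leaves given 3-MA plus NaCl and leaves given NaCl alone was beyond 7 with a p-value below 0.001. The leaf values therefore chose the genes and are given here as a description without a test, except where untreated leaves stand beside untreated roots. That comparison is limited too, because the choice favoured genes with low values in leaves given NaCl alone. The root libraries had no part in the choice and could be tested.

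RNA-seq was run on seedlings of the NaCl-tolerant wheat variety Jimai 22 grown in dilute Hoagland solution. Roots formed the groups CG (control, no NaCl), TG (150 mM NaCl) and TMG (5 mM 3-MA plus 150 mM NaCl), and the third leaves formed CY, TY and TMY under the same 3 conditions. Roots or leaves were collected 4 days after treatment, 10 of them were mixed for each library, and 3-MA entered the medium 5 h before NaCl. Each group held 3 libraries, 18 in all. The labels mention more biological replicates per treatment than the 3 analysed here, and seedlings came from separate pots, although which pot gave which library was not stated. None of the 18 libraries had 3-MA without NaCl, so the action of 3-MA alone and its action under salt cannot be told apart. 3-MA (3-methyladenine) blocks phosphatidylinositol 3-kinases and is widely used to hold back autophagy, but it is not specific to that pathway.

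Calmodulin is a small calcium sensor. When the calcium level in the cytosol rises, as it does within moments of salt reaching a root, calcium binds the EF-hand loops of calmodulin, the protein changes shape, and it then docks onto kinases, pumps, channels and transcription factors. Calmodulin-like proteins (CMLs) are a larger plant family that also consists mostly of EF-hands, differs from calmodulin in sequence, and in many members has no known target. Many CML genes are nearly silent in unstressed tissue and are induced by stress, wounding or pathogen signals.

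TraesCS1A02G435100 and TraesCS1A02G435200 lay side by side on the plus strand of chromosome 1A, at 585690525 to 585691316 and at 585743068 to 585743794, with 51751 bases and no other annotated gene between them. TraesCS1B02G470900 lay on 1B at 679174332 to 679175169, and TraesCS1D02G444200 on 1D at 487614714 to 487624759, both also on the plus strand. Coordinates are those of the table, in the Chinese Spring assembly of the International Wheat Genome Sequencing Consortium. Gene lengths were 792, 727, 838 and 582 bases in that order. For the first 3 the length equalled the genomic span, as in a gene without introns, whereas the 1D gene spanned 10046 bases, 9464 more than its length. The table itself carried a description for 28426 genes and for 0 of these 4. The names come from the closest protein in the study's annotation, which was calmodulin-like protein 5 for TraesCS1A02G435100, calmodulin-like protein 7 for TraesCS1B02G470900 and calmodulin-like protein 3 for the other two. What each protein does in wheat was not given in the sources used here.

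Total counts per library ran from 27156078 to 33150906, and the scaling factors that correct for library composition (TMM, trimmed mean of M-values) from 0.607 to 1.27, with the lowest in CY. The tissue labels were checked against 91 genes described as chlorophyll a-b binding proteins, whose summed level was 14.8 to 417 CPM (counts scaled to library size) in the root libraries and 8083 to 94042 CPM in the leaf libraries. The summed level of 153 genes described as CASP or Casparian strip membrane proteins was 574 to 762 CPM in roots and 362 to 495 CPM in leaves. The 4 genes themselves were rare transcripts. Their highest count in any library was 804, and no library without 3-MA held more than 39 counts of any of them. At such counts, intervals and floors given below cover counting error only.

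In roots, all 4 genes rose when 3-MA was given with NaCl, compared with NaCl alone. The rises were between 3.92-fold and 16.0-fold. TraesCS1B02G470900 had the largest rise and TraesCS1D02G444200 the smallest. These libraries are separate from the leaf libraries that chose the genes.

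TraesCS1A02G435100 had 19, 16 and 20 counts in the TG libraries and 324, 242 and 271 in the TMG libraries. Every TMG library lay far above every TG library. Mean levels were 0.495 ± 0.0597 CPM (SD, n = 3) in TG and 7.24 ± 1.53 CPM in TMG, a log2 fold change of 3.86 (SE 0.23, edgeR quasi-likelihood adjusted p = 0.000118). An equal or larger rise was fitted for 0.125% of the 73651 genes tested.

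TraesCS1A02G435200, its neighbour on 1A, had 15, 7 and 6 counts in TG and 75, 53 and 71 in TMG, again without overlap. Among the 4 it had the fewest counts under this treatment. Its mean moved from 0.249 ± 0.121 to 1.73 ± 0.411 CPM (SD, n = 3), a log2 fold change of 2.77 (SE 0.40, edgeR adjusted p = 0.00293).

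TraesCS1B02G470900 was close to absent in TG, with 7, 4 and 2 counts, and stood at 69, 52 and 100 in TMG. The groups were far apart, although the low TG counts leave the size of the fold uncertain. The log2 fold change was 4.00 (SE 0.48, edgeR adjusted p = 0.00137), and the ratio of the summed counts, 221 against 13, was 16.2 with an exact 95% counting interval of 9.29 to 30.9.

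TraesCS1D02G444200 had 28, 16 and 19 counts in TG and 73, 105 and 83 in TMG. It was the most abundant of the 4 per length in salt-treated roots and changed least. Its log2 fold change was 1.97 (SE 0.27, edgeR adjusted p = 0.00241), from 0.563 ± 0.146 to 2.23 ± 0.258 CPM (SD, n = 3).

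Of all 73651 genes tested in this comparison, 20.2% were called at an adjusted p of at most 0.05, and 8.16% were called higher in TMG, against all 4 of these genes. TraesCS1A02G435200 and TraesCS1B02G470900 passed the filter on low counts through the TMG libraries, and without any filter their adjusted p-values were 0.00183 and 0.000641. The calls of all 4 held under each of the 13 alternatives run for each gene, with adjusted p-values up to 0.0329. Tissue markers moved in the same libraries. The summed CASP level was 649 to 742 CPM in TG and 574 to 594 in TMG, and the summed chlorophyll a-b binding level 55.6 to 97.8 CPM in TG and 14.8 to 22.0 in TMG (86 of the 91 genes had counts), and their part in the result was not tested. As these are bulk samples, more cells using a gene and more RNA per cell cannot be told apart. Copies of one wheat gene on the A, B and D genomes can be nearly identical, and how the authors' counting divided reads between such copies was not given in the sources used here, so the split among the 4 genes is less certain than their joint rise.

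**Figure D1:**
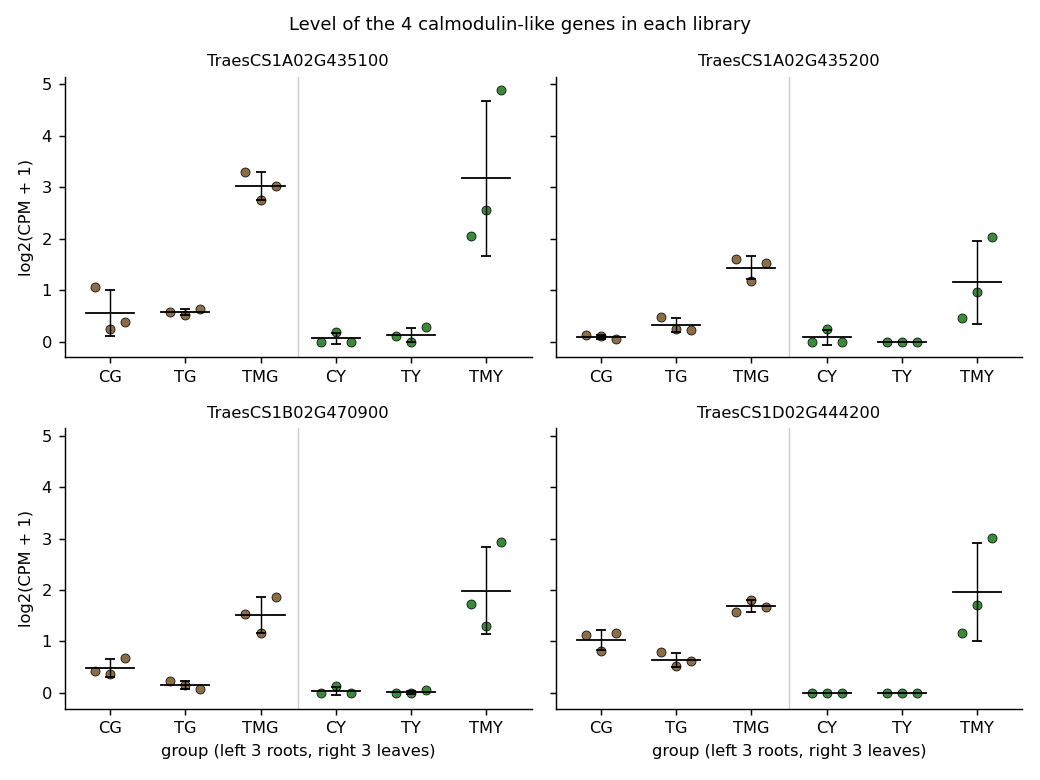
Level of each gene in each of the 18 libraries, as log2(CPM + 1), with the group mean as a horizontal line and 1 SD as the error bar (n = 3), roots in brown and leaves in green. The 3 TMG libraries lie above all CG and TG libraries for every gene, and the 3 TMY libraries lie above all CY and TY libraries, with TMY replicate 3 the highest each time.

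Salt alone gave no called change of any of the 4 genes in roots, and their directions differed. TraesCS1A02G435100 had 36, 5 and 8 counts in CG, which spans its TG counts of 16 to 20. Its log2 fold change between TG and CG was -0.08 (SE 0.63, edgeR adjusted p = 0.931). The wide SE goes with CG replicate 1, the library with 36 counts, and without that library the value was 1.05 (adjusted p = 0.169).

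TraesCS1D02G444200 had 39, 21 and 33 counts in CG and 28, 16 and 19 in TG. After scaling, every TG library was below every CG library. The means were 1.06 ± 0.267 and 0.563 ± 0.146 CPM (SD, n = 3), and the log2 fold change of -0.87 (SE 0.37) had an unadjusted p of 0.0451 and an adjusted p of 0.1003 in the edgeR fit, which is short of the threshold.

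The other two were too rare in these 6 libraries to pass the filter. TraesCS1B02G470900 had 11, 8 and 16 counts in CG against 7, 4 and 2 in TG, a ratio of 0.292 with an exact 95% counting interval of 0.142 to 0.567. TraesCS1A02G435200 went the other way, with 3, 2 and 1 counts in CG against 15, 7 and 6 in TG, a ratio of 3.67 (1.49 to 10.9). Neither gene's groups overlapped. Fitted without the filter, the adjusted p was 0.0960 for the first and 0.128 for the second, and the first was called in 1 alternative, without TG replicate 1 (log2 fold change -2.21, adjusted p = 0.0390). Of all 73066 genes tested between TG and CG, 35.6% were called, against 0 of the 2 members tested, of which 1 had an unadjusted p under 0.05 and 0 were called by DESeq2.

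Against control roots, roots given 3-MA plus NaCl again held more of all 4 transcripts. This comparison shares the TMG libraries with the first and the CG libraries with the salt comparison, so the 3 sets of values are not independent. The log2 fold changes of TMG against CG were 3.74 (SE 0.43, edgeR adjusted p = 2.20e-05) for TraesCS1A02G435100 and 4.61 (SE 0.46, adjusted p = 8.22e-06) for TraesCS1A02G435200. They were 2.27 (SE 0.40, adjusted p = 0.000582) for TraesCS1B02G470900 and 1.10 (SE 0.27, adjusted p = 0.00481) for TraesCS1D02G444200.

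As against salt alone, TraesCS1A02G435200 and TraesCS1B02G470900 passed the filter through TMG, and without it their edgeR adjusted p-values were 1.45e-06 and 0.000231. The order differed from that against salt alone. TraesCS1A02G435200, with 6 counts in all 3 CG libraries together, had the largest fold change, and the 1B gene, which was more abundant in CG than in TG, had a smaller one. Of the genes tested, 56.6% were called and 28.1% were called higher, so a call in this comparison is common. The call of TraesCS1D02G444200 was lost when all 6 groups shared a fit (log2 fold change 1.07, adjusted p = 0.121). Without CG replicate 1 the value of TraesCS1A02G435100 was 4.91 in place of 3.74.

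**Figure D2:**
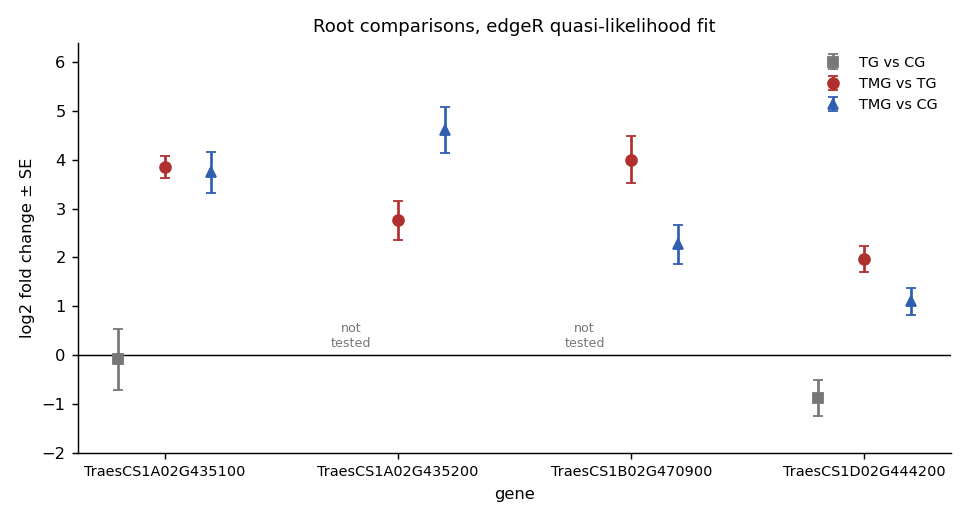
Fitted log2 fold changes with their SE in the 3 root comparisons, for the 4 genes along the horizontal axis. TMG against TG (red circles) and TMG against CG (blue triangles) lie above 0 for every gene, from 1.10 to 4.61, while TG against CG (grey squares) lies at -0.08 and -0.87 for the genes that passed the filter.

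In leaves the genes were at or near 0 without 3-MA and present in every library with it. TraesCS1A02G435100 had 0, 3 and 0 counts in CY, 2, 0 and 6 in TY, and 110, 154 and 804 in TMY. TraesCS1A02G435200 had 0, 4 and 0 in CY, 0 in each TY library, and 13, 30 and 87 in TMY. In both genes the lowest TMY library was above the highest library of CY and of TY. The summed chlorophyll a-b binding level was lower in TMY (8083 to 13435 CPM) than in TY (19882 to 23991 CPM) without overlap, while the CASP sums overlapped, and their part in the result was not tested.

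TraesCS1B02G470900 had 0, 2 and 0 counts in CY, 0, 0 and 1 in TY, and 80, 46 and 185 in TMY. TraesCS1D02G444200 was listed at 0 in all 6 CY and TY libraries and had 43, 71 and 199 counts in TMY. It was the sole member with no read in untreated or salt-treated leaves, although it was the most abundant of the 4 per length in control roots.

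As ratios of summed counts, TMY against TY gave 119 (exact 95% counting interval 60.02 to 276) for TraesCS1A02G435100, from 1068 against 8 counts. TraesCS1B02G470900 gave 277, from 311 counts against 1, with an interval so wide (49.3 to 10957) that only its lower end is informative. Against a floor of 3 counts over the 3 TY libraries, TraesCS1A02G435200 was at least 38.5-fold higher and TraesCS1D02G444200 at least 92.8-fold higher.

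The comparison of TMY with TY is the one that chose the genes, so these values repeat the choice. The background there, 8.44% of 64867 tested genes called higher, is given for completeness. In the edgeR fit, the member nearest the limit was TraesCS1A02G435100 with a log2 value of 7.004. The 3 tested genes that the table describes as calmodulin or CML were at 1.00, -0.12 and -0.88. Only 28426 of 134610 genes have a description there, and the members have none. Other CML genes may therefore lie between these values. Against untreated leaves, the ratio of TMY to CY was 225 (exact 95% counting interval 76.9 to 1094) for TraesCS1A02G435100, 20.6 (7.84 to 76.6) for TraesCS1A02G435200 and 98.4 (27.0 to 816) for TraesCS1B02G470900, and TraesCS1D02G444200 was at least 66.0-fold higher. Between TY and CY, with 8 against 3, 0 against 4, 1 against 2 and 0 against 0 counts, no difference was detectable at this depth.

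The 3 TMY libraries differed widely from each other. TMY replicate 3 was 7.09 times the mean of the other two for TraesCS1A02G435100 and 4.66, 3.50 and 4.05 times for TraesCS1A02G435200, TraesCS1B02G470900 and TraesCS1D02G444200. The highest TMY library was 4.49 to 9.05 times the lowest across the 4 genes, whereas in TMG this ratio was 1.26 to 2.13. Mean levels in TMY therefore carried SDs as large as or close to the means: 12.3 ± 14.3, 1.48 ± 1.44, 3.46 ± 2.75 and 3.54 ± 3.13 CPM (SD, n = 3) for the 1A pair, the 1B and the 1D gene.

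Without TMY replicate 3 the mean levels were 4.04, 0.666, 1.89 and 1.75 CPM in the same order. TMY against TY was then 41.8-fold for TraesCS1A02G435100 and 160-fold for TraesCS1B02G470900, and at least 18.2-fold and 48.1-fold for the genes with no TY count. Presence in TMY thus did not rest on that library, but the size of the leaf value did. TMY replicate 3 had the lowest total of its group, 27218551 counts against 33150906 and 30379302, and a scaling factor of 1.03 against 1.05 and 1.03. Its summed chlorophyll a-b binding level was 8083 CPM against 9217 and 13435. The part of these values in the result was not tested.

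Ranked by mean CPM, TMY and TMG were the highest 2 groups for every gene. TMY was above TMG for TraesCS1A02G435100, TraesCS1B02G470900 and TraesCS1D02G444200 and below it for TraesCS1A02G435200, but the TMY and TMG libraries overlapped for all 4. CG and TG followed and overlapped for TraesCS1A02G435100 only. CY and TY came last and overlapped for every gene. For TraesCS1A02G435200 the CY mean, 0.0630 CPM from 4 reads in 1 library, was next to the CG mean of 0.0667 CPM from 6 reads, and these groups overlapped too.

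Untreated roots and leaves were then set side by side. The limit on TMY against TY favoured genes with few counts in TY, and CY and TY overlapped for every gene. Low counts in CY were therefore partly built into the choice, so the p-values given here cannot establish a tissue preference. TraesCS1D02G444200 had 93 counts over the CG libraries and 0 over the CY libraries, which makes it at least 21.1-fold higher in roots (edgeR adjusted p = 0.000173). It passed the filter through its root counts, and without the filter the edgeR adjusted p was 0.000112. Between CG and CY, 65.4% of the 71882 genes tested were called and 36.1% were called higher in roots.

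The other 3 members did not pass that filter. TraesCS1A02G435100 had 49 counts in CG against 3 in CY, a ratio of 11.1 (exact 95% counting interval 3.58 to 55.6), and TraesCS1B02G470900 had 35 against 2, a ratio of 11.9 (3.05 to 102). Both had more reads in every root library than in any leaf library. TraesCS1A02G435200, with 6 against 4 counts, showed no detectable difference at this depth. Without the filter, the edgeR adjusted p was 0.0273 for TraesCS1A02G435100 and 0.0182 for TraesCS1B02G470900.

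Levels of the 4 genes can be set against each other per length, as FPKM (fragments scaled to gene length and library size, the authors' values). Their summed FPKM was 1.99 to 3.97 in CG, 1.69 to 2.65 in TG and 14.3 to 19.0 in TMG. In leaves it was at most 0.539 in CY and 0.303 in TY, and 9.05, 12.7 and 59.2 in the TMY libraries.

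The make-up of that sum differed between treatments. TraesCS1D02G444200 made up 51.7 to 66.0% of it in CG and 44.3 to 47.6% in TG, and 17.4 to 29.1% in TMG. TraesCS1A02G435100 made up 11.5 to 35.0% in CG, 23.7 to 36.8% in TG and 48.8 to 56.8% in TMG. So the 1D gene led in roots without 3-MA, and the first of the 1A pair led with it, without overlap of TMG with CG or TG for either gene.

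In TMY, where the sum differed so widely between libraries, the make-up differed less, with 42.6 to 59.8% from TraesCS1A02G435100 and 20.1 to 29.6% from TraesCS1D02G444200. TraesCS1A02G435200 made up 1.58 to 5.03% in CG, 12.0 to 20.4% in TG, 11.7 to 14.3% in TMG and 5.48 to 10.0% in TMY. In TG it was above TraesCS1B02G470900, which made up 3.48 to 8.26% there. Since near-identical copies may share reads, these shares describe the deposited values and not necessarily the transcripts.

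**Figure D3:**
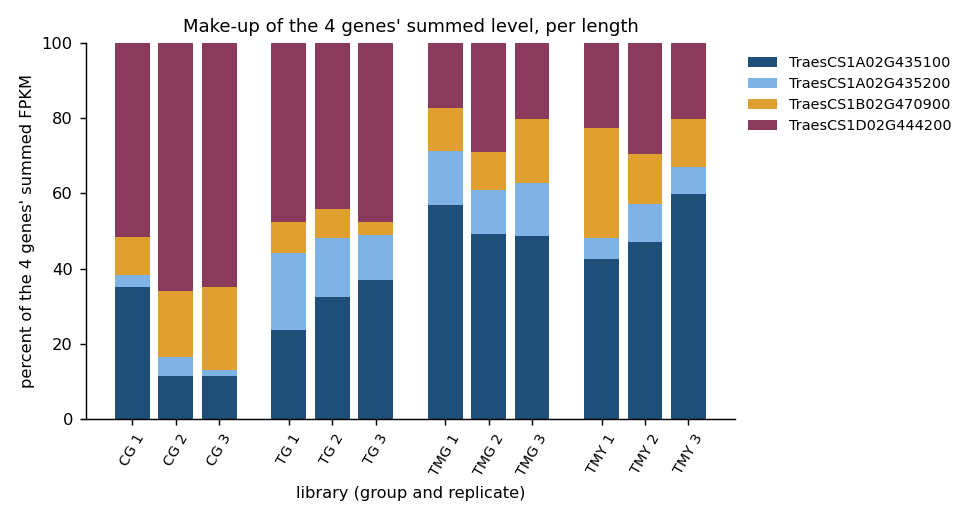
Share of each gene in the summed FPKM of the 4, as a percentage, in each library of CG, TG, TMG and TMY. The 1D gene makes up at least 44.3% in every CG and TG library, and TraesCS1A02G435100 at least 42.6% in every TMG and TMY library.

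Across the 18 libraries, the log2(CPM + 1) of each gene followed the mean of the other 3 with a Pearson r of 0.982 (TraesCS1A02G435100), 0.942 (TraesCS1A02G435200), 0.953 (TraesCS1B02G470900) and 0.930 (TraesCS1D02G444200). These are descriptions, since the genes were chosen for a shared leaf change, and libraries of one group are alike for many genes.

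The 3 annotated genes on each side of each locus, 18 in all, were examined for the same pattern. Of these, 7 had no count in any library. The neighbour TraesCS1B02G471000 matched the members closely. It follows TraesCS1B02G470900 on the same strand at a distance of 74.65 kb (1B, 679249819 to 679250609), is 791 bases long, which equals its genomic span, and has no description in the table. The adjacent genes on 1A were both chosen for their leaf change, so their likeness repeats the choice. On 1B the adjacent gene was not among those chosen, and this is a single case.

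TraesCS1B02G471000 had 4, 8 and 9 counts in CG, 11, 10 and 8 in TG, and 60, 74 and 71 in TMG. It had 0 in each CY library, 0, 0 and 3 in TY, and 42, 56 and 146 in TMY, where replicate 3 was again the highest. TMG against TG gave a log2 fold change of 2.74 (SE 0.28, edgeR adjusted p = 0.000661). The gene passed the filter through TMG, and without a filter, an alternative chosen after seeing the data, the adjusted p was 0.000424. TMY against TY gave 72.3 as a ratio of counts (exact 95% interval 24.5 to 353).

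Over the 18 libraries its Pearson r with the mean of the 4 members was 0.987, the highest of the 82121 other genes compared. Whether TraesCS1B02G471000 is a near copy of a member and shares reads with it was not tested. The 6 other neighbours with enough counts for the correlation had r between -0.47 and 0.06. They included TraesCS1B02G470800 and TraesCS1B02G471200 on either side of the 1B locus. A further neighbour, TraesCS1A02G435400, lies 99.854 kb beyond the 1A pair. It had 4, 8 and 3 counts in TMG and none in CG or TG. In leaves it had 0, 2 and 0 counts in CY, 3, 0 and 1 in TY and 10, 0 and 66 in TMY, so these groups overlapped. TraesCS1D02G444000, a neighbour of the 1D gene, had 20, 5 and 10 counts in TMG and 4, 1 and 0 in TG. It had none in CG or in any leaf library. Both neighbours had too few counts to be tested.

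**Figure D4:**
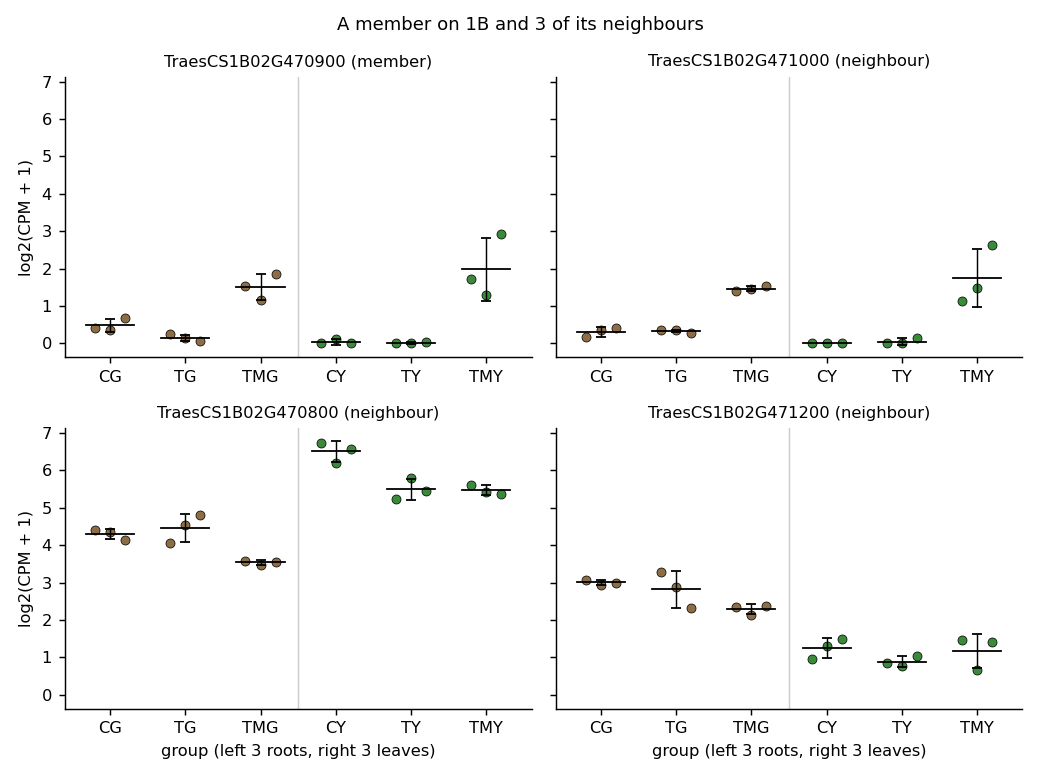
Level of the 1B member and of 3 of its neighbours in each library, as log2(CPM + 1), with group mean and SD (n = 3), roots in brown and leaves in green. TraesCS1B02G471000 follows the member, with TMG and TMY above the other groups, whereas TraesCS1B02G470800 and TraesCS1B02G471200 do not.

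The 5 genes whose pattern was most like that of the members' mean, by the same correlation, were TraesCS1B02G471000, TraesCS6D02G379100 (r = 0.979), a locus on 4A outside the reference annotation (r = 0.960), TraesCS3B02G109700 (r = 0.949) and TraesCS5D02G004400 (r = 0.944). TraesCS6D02G379100 had mean levels of 0.754, 1.06 and 5.92 CPM in CG, TG and TMG and 7.56 CPM in TMY. TraesCS5D02G004400, described as an AAA ATPase of the cell division protein family, was expressed in every group, from 5.63 CPM in CY to 21.5 CPM in TMY. The locus on 4A carries a gag domain of copia-type retrotransposons. In all, 49 genes had r above 0.9 and 3 had r above 0.95, which is a description of likeness over these libraries.

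The other genes named as calmodulin differed from the members in the size of their changes, and not all in direction. The table describes 4 further genes as calmodulin or CML, and 3 of them were abundant. CML genes without a description there could not be listed. They are genes described as TaCaM1-1, a wheat calmodulin, on 2D (TraesCS2D02G097500) and 4B (TraesCS4B02G178200), and CML79 on 3D (TraesCS3D02G484600). A further gene described as TaCaM1-1, TraesCS2A02G098100, had at most 7 counts in any group.

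TraesCS4B02G178200 stood at 18.4 ± 0.841 CPM in CG, 24.4 ± 0.739 in TG and 31.1 ± 2.02 in TMG (SD, n = 3). It rose in TG against CG by 0.44 on the log2 scale (SE 0.12, edgeR adjusted p = 0.0194) and in TMG against TG by 0.35 (SE 0.09, adjusted p = 0.0368), far less than any member. In leaves it rose in TMY against TY by 1.00 (SE 0.17, adjusted p = 0.00766).

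CML79 moved the other way. TraesCS3D02G484600 fell with salt in roots, from 89.1 ± 13.1 to 26.3 ± 10.3 CPM (SD, n = 3; log2 fold change -1.73, SE 0.27, edgeR adjusted p = 0.00192), and was lower in TMY than in TY (-0.88, SE 0.23, adjusted p = 0.0346). Its change in TMG against TG, 0.31, was not called (adjusted p = 0.426). TraesCS2D02G097500, which had the highest mean FPKM of the 3 in every group, was not called by edgeR in any of the 4 salt and 3-MA comparisons (adjusted p = 0.0873 for TG against CG, unadjusted p = 0.0375), although DESeq2 made 3 calls on this list for salt in roots.

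Salt in roots gave 2 calls among the 3 genes tested, beside 35.6% of all genes. With 3-MA there was 1 call in roots and 2 in leaves, beside 20.2% and 18.4%. For salt in leaves, where 23.3% of genes were called, 0 of the 3 passed in the edgeR fit, although 3 had an unadjusted p under 0.05 and 1 was called by DESeq2. The counts over so short a list turned on single libraries.

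The wider calcium machinery was taken from the descriptions in the table. Calcium-transporting ATPases, which pump calcium out of the cytosol and include the calmodulin-activated pumps, numbered 39. In roots with 3-MA under salt, 10 of 35 tested rose and 3 fell, 37.1% called against 20.2% of all genes, with a median log2 fold change of 0.35 against -0.01 over all genes. With salt alone, 2 of 34 rose and 14 fell, 47.1% against 35.6% (median -0.31 against 0.03).

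In leaves, 7 of 26 ATPases were called between TY and CY, all lower, and 4 rose and 4 fell of 30 between TMY and TY. These shares, 26.9% and 26.7%, stand beside 23.3% and 18.4% of all genes. Named after its values were seen, TraesCS5B02G276500 had the largest rise in both tissues under 3-MA among the called ATPases with a mean of at least 1 CPM, from 0.877 to 5.22 mean CPM in roots (log2 fold change 2.56, SE 0.27, edgeR adjusted p = 0.000710) and from 0.0595 to 2.35 ± 2.82 CPM (SD, n = 3) in leaves (5.26, SE 1.20, adjusted p = 0.0207). In leaves it passed the filter through TMY, with 18, 29 and 157 counts there and 2, 0 and 3 in TY. Without TMY replicate 3, an alternative chosen after seeing the data, the TMY mean was 0.722 CPM and the log2 fold change 3.56 (edgeR adjusted p = 0.0479).

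Cation/proton exchangers, which load calcium into the vacuole in exchange for protons, gave 3 of 12 called between TMG and TG and 3 of 11 between TMY and TY, all higher. With salt alone, 4 of 11 in roots and 5 of 11 in leaves were called, all lower. The root share of 36.4% stands beside 35.6% of all genes called in either direction and 17.1% called lower. The leaf share of 45.5% stands beside 23.3% and 13.2%. The shares called with 3-MA, 25.0% and 27.3%, stand beside 20.2% and 18.4% called in either direction. Of all genes, 8.16% and 8.44% were called higher there. These shares rest on 3 to 5 exchangers each.

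Glutamate receptors, channels that admit calcium, were many but mostly rare. Of the 67 listed, 5 rose and 3 fell of 47 tested between TMG and TG, and 3 rose and 9 fell of 33 between TMY and TY. With salt alone, 8 rose and 13 fell of 43 in roots, and 12 of 30 were called in leaves, all lower. The shares called were 17.02% against 20.2% of all genes for 3-MA in roots, 36.4% against 18.4% for 3-MA in leaves, 48.8% against 35.6% for salt in roots and 40.0% against 23.3% for salt in leaves, so the count for 3-MA in roots was near the background.

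Annexins bind membranes in a calcium-dependent manner. Of 18, 4 rose and 7 fell between TMG and TG, 61.1% called against 20.2% of all genes, and 1 rose and 7 fell of 14 between TMY and TY, 57.1% called against 18.4% of all genes. With salt alone, 5 rose and 3 fell in roots (44.4% against 35.6%), and 3 rose and 4 fell of 13 in leaves (53.8% against 23.3%).

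Calcium-dependent protein kinases carry a calmodulin-like domain fused to the kinase. Of 4, 2 were called lower with salt in roots and 2 in leaves, and 1 was called lower between TMY and TY, in tables where 35.6%, 23.3% and 18.4% of all genes were called. Calcineurin B-like proteins are another EF-hand sensor family, which works through its own kinases. Of 13, 1 was called between TG and CG, 4 of 12 between TY and CY and 1 of 12 between TMY and TY. These are 7.69%, 33.3% and 8.33% beside the same background shares. Between TMG and TG, 0 of 4 kinases and 0 of 13 calcineurin B-like proteins were called by edgeR (1 and 2 at an unadjusted p under 0.05, and 0 of either by DESeq2). No gene of the table was described as a CBL-interacting kinase, a cyclic nucleotide-gated channel, a calmodulin-binding protein or a respiratory burst oxidase, so these were not analysed here.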

How the data were processed

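Counts per gene and FPKM values (fragments scaled to gene length and library size) were deposited by the authors for 18 wheat RNA-seq libraries of 150-base reads. Per the labels' processing notes, HISAT2 2.0.5 and Bowtie 0.12.2 were used. Per the study's methods, reads were aligned to the Chinese Spring genome of Ensembl Plants release 45. The notes also name a mouse build, although all genes were on wheat chromosomes. The counting program was not given in the sources used here.

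Deposited counts were tested with edgeR 4.0.16 (quasi-likelihood F-test, filterByExpr, TMM scaling, R 4.3.3) on the 6 libraries of each comparison, with Benjamini-Hochberg adjustment over all genes tested and a threshold of 0.05. Levels are CPM scaled by TMM over all 18 libraries. Count ratios carry exact conditional binomial intervals, and groups at 0 were set to a floor of 3 counts over the group. The tests were run on simulated counts for TG against CG and TMG against TG. Changes were put only into genes above 1 CPM, so this check does not cover genes as rare as the members were without 3-MA. Alternatives were DESeq2 1.42.0, RLE or library-size scaling, no filter, a filter of 1 CPM in 3 libraries, a fit of all 6 groups, a replicate block and each library left out. For 2 further genes, fits without a filter or without a TMY library were added after seeing the data. No 2 libraries were identical. P-values measure the spread between libraries of mixed plants.

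Members and lists were chosen with earlier results of these data known. The text names the members, the 3 annotated genes on each side of each locus, the 5 genes most correlated with the members' mean and, of other calmodulin or CML genes, the 3 largest rises and falls among called genes with a mean of at least 1 CPM and no overlap. No sequence is shown, because the gene table provided for names is of another assembly and does not carry these gene IDs.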

Additional observations from a re-analysis of the deposited data

Results flagged for a closer look

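The members themselves met no rule for a closer look, because their leaf values chose them and groups of 3 libraries are too small for a test of single outlying samples. Among the neighbours and the other calmodulin genes with enough counts, 3 responded differently in roots and leaves by an edgeR test of the difference itself. In that test 11.1% of 79339 genes were called for salt and 10.5% of 79864 for 3-MA under salt. Tested and called for neither were TraesCS2D02G097500, TraesCS3D02G484600, TraesCS1A02G435000, TraesCS1B02G471200 and TraesCS1D02G444400. TraesCS1D02G444500 was tested for salt only and TraesCS1B02G471000 for 3-MA only, and neither was called.

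TraesCS1B02G470800, the neighbour before the 1B member, had a salt response 1.18 higher in roots than in leaves on the log2 scale (adjusted p = 0.0274) and a response to 3-MA under salt that differed by -1.13 (adjusted p = 0.0239). TraesCS4B02G178200, described as TaCaM1-1, differed by 0.87 for salt (adjusted p = 0.0174) and by -0.74 for 3-MA under salt (adjusted p = 0.0339). TraesCS1D02G444100, the neighbour before the 1D member, differed by -1.45 for 3-MA under salt (adjusted p = 0.0309) and was not called for salt (adjusted p = 0.0759). For TraesCS1B02G471000, the neighbour that follows the members' pattern, the difference for 3-MA was -3.51, roots below leaves, and was not called (adjusted p = 0.0642).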

How the results depend on the processing

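The 4 root rises with 3-MA against salt alone kept their direction and call in all 52 alternative fits, with log2 values of 3.70 to 4.01, 2.56 to 3.23, 3.70 to 4.47 and 1.83 to 2.19 for the 1A pair, the 1B and the 1D gene. Against control roots, 51 of 52 held, and TraesCS1D02G444200 lost its call with 6 groups in one fit (1.07). The change of TraesCS1A02G435100 with salt in roots, which was not called, turned positive with library size as the only scaling (0.12), with the replicate block (0.22) and without some libraries (-0.49 to 1.05 over the 6). That of TraesCS1B02G470900 was -2.21 to -1.42 in the 4 of 6 fits with a library left out in which it passed the filter. Between CG and CY, TraesCS1A02G435100 was called by DESeq2 (3.45) and without a filter (3.31), but not with 6 groups in one fit (3.33, edgeR adjusted p = 0.0544). TraesCS1B02G470900 was called by DESeq2 (3.65), without a filter (3.44) and with 6 groups in one fit (3.44). With a library left out it passed the filter in 4 of 6 fits and was called in these (2.90 to 6.36). The cause was not tested.

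Calls of the calmodulin list, 2 between TG and CG, were 1 for CML79 alone and 1 to 3 with a library left out. The 1 call between TMG and TG became 0 without a filter, with 6 groups in one fit, with the replicate block and for CML79 alone, and 0 to 2 with a library left out. Between TY and CY, 0 became 1 with DESeq2, 2 with 6 groups in one fit, 1 with the replicate block and 0 to 1 with a library left out. Between TMY and TY, 2 became 1 with library size as the only scaling, with the replicate block and for CML79 alone, and 1 to 2 with a library left out. Mean TMY levels depended on the library left out. For the 1A pair they were 4.04 to 16.8 and 0.666 to 2.03 CPM. For the 1B and the 1D gene they were 1.89 to 4.45 and 1.75 to 4.68 CPM. With other scalings, the mean of TraesCS1A02G435100 was 11.1 to 12.6 CPM, in place of 12.3.

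Replicate numbers did not pair the libraries (correlations of same-numbered deviations -0.222 to 0.147 over 21 pairs). The block changed no call of a member. Over all genes it took the calls between TMY and TY from 11923 to 6785. With a library left out the calls between TMG and TG, 14879 in the full comparison, were 7430 to 16839, those between TMY and TY 5174 to 17369, those between TY and CY, 14655 in full, 8045 to 13999, and those between TG and CG, 26032 in full, 17124 to 27797. Library size as the only scaling moved the median log2 change of all genes to 0.26 for TG against CG, 0.30 for TMG against CG, 0.73 for CG against CY, 0.37 for TY against CY and 0.15 for TMY against TY, from 0.03, 0.03, 0.14, 0.02 and 0.00. The calls between TG and CG were then 20020 higher and 8640 lower, in place of 13507 and 12525, those between TMG and CG 28916 and 15922 in place of 20642 and 20936, those between CG and CY 37274 and 14657 in place of 25943 and 21071, those between TY and CY 14880 and 4750 in place of 6348 and 8307, and those between TMY and TY 8204 and 4948 in place of 5472 and 6451. Counts under 40 per library limit every statement on the members without 3-MA.
The added fits for TraesCS1B02G471000 and TraesCS5B02G276500 kept direction and call, with 3.56 to 5.76 for the latter in leaves with a TMY library left out.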
